A study of Mus musculus with 16 samples.

Results

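The regulators of bile acid synthesis around FXR and SHP examined here were 9 genes: Nr1h4, which encodes the bile acid receptor FXR; Nr0b2, which encodes the repressor SHP; Nr5a2, which encodes LRH-1; Hnf4a; Fgfr4 and Klb, which encode the hepatic receptor of the gut hormone FGF15; and Mafg, Prox1 and Nr2f2, which encode transcriptional repressors. These 9 genes were taken from a named list and their probes were found by matching the accession of each non-control spot to a gene symbol, which gave 13 probes out of 26762 named probes and 9 genes out of 20284 on the array. Nr5a2 and Fgfr4 had 2 probes each and Mafg had 3, numbered here by brightness with probe 1 the brightest. The study profiled liver RNA from 16 male ApoE KO mice with 1-colour Agilent arrays, 1 array per mouse, to find genes of bile acid metabolism that respond to the microRNA miR-185. Eight-week-old animals on a high-fat diet received either miR-185-inh, lentiviruses that encode an antisense to miR-185, or ctrl-inh, the control inhibitor, and livers were collected after 8 weeks. There were 8 miR-185-inh mice and 8 ctrl-inh mice, and both groups were ApoE KO and on the high-fat diet. The labels name no promoter or cell type that drives the lentiviral insert, and the level of mature miR-185 was not analysed here.

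As background, bile acids returning to the liver activate FXR, which induces the atypical receptor SHP. SHP has no DNA-binding domain of its own and blunts LRH-1 and HNF4A, which activate Cyp7a1, the rate-limiting enzyme of the classic bile acid pathway, and Cyp8b1, the sterol 12-alpha-hydroxylase. In the ileum FXR induces FGF15, which reaches the liver and acts through FGFR4 with its coreceptor beta-Klotho, the Klb product. MAFG is an FXR-induced repressor of Cyp8b1 and other bile acid genes, PROX1 is a corepressor that binds LRH-1 and HNF4A, and COUP-TFII, the Nr2f2 product, binds elements that HNF4A also occupies.

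The promoter of Nr0b2 is shown because it is the point at which FXR and LRH-1 meet in this circuit and because Nr0b2 varied most between mice among the 9 genes. The window runs from 250 bases before to 50 bases after the RefSeq start site, on the plus strand of GRCm38.p6 at chr4:133553126-133553425, and the capitals mark TCAAGG.
Nr0b2: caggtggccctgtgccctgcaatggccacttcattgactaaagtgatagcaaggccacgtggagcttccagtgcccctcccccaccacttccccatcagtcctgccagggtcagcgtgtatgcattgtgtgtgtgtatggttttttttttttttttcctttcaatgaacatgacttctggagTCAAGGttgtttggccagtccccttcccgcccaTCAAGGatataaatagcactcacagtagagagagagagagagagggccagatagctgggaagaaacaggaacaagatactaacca
TCAAGG, the left letters of the LRH-1 recognition sequence, began at -68 and -35 relative to the start site. It was chosen after the window had been read, and occurred on either strand in 14.4% of 32851 mouse promoter windows of this length. The nuclear receptor core AGGTCA (16.3% of windows), AAGGTCA (4.72%), the inverted repeat of AGGTCA with 1 base between the copies (0.00913%) and its direct repeat with 1 base between them (0.0396%) did not occur in the Nr0b2 window on either strand. AGGTCA is contained in all of these motifs. Letters alone do not show that a protein binds. Only exact letters within this window were searched, and their absence does not show that no protein binds.

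The arrays held 59305 non-control spots each, of which 58.7% to 74.8% were well above background, and Pearson's r across probes between any pair of the 16 arrays lay between 0.983 and 0.996. The number of arrays limits the precision. All 8 miR-185-inh arrays were on slide 2 and scan 2, and all 8 ctrl-inh arrays on slide 1 and scan 1, so for every difference between the groups, treatment and slide cannot be told apart. Each slide had 2 rows of 4 arrays, and rows were shared by both groups. Values below are log2 of the background-corrected spot intensity minus the 75th percentile of the same array, and levels of different probes cannot be set against each other. Hepatocyte markers such as Alb and Ttr were well above background on all 16 arrays for 8 of 8 genes. In whole liver, fewer cells of a type and less RNA per cell cannot be told apart.

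None of the 13 probes passed limma's test after Benjamini-Hochberg adjustment over all 35482 probes, against 4.3% of all probes (1527), of which calls in the upward direction made up 1.08% of all probes and calls in the downward direction 3.22%. At an unadjusted limma p under 0.05 there were 5 of 13, against 19.8% of all probes. Of the 13 differences between miR-185-inh and ctrl-inh, 9 were above zero and 4 below, with a median of 0.12, beside a median of -0.037 over all probes, of which 41.1% were above zero. The miR-185-inh and ctrl-inh values overlapped for all 13 probes, and groups that do not overlap occurred in 0.817% of all probes. All 13 probes were well above background on all 16 arrays and none was saturated.

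**Figure D1:**
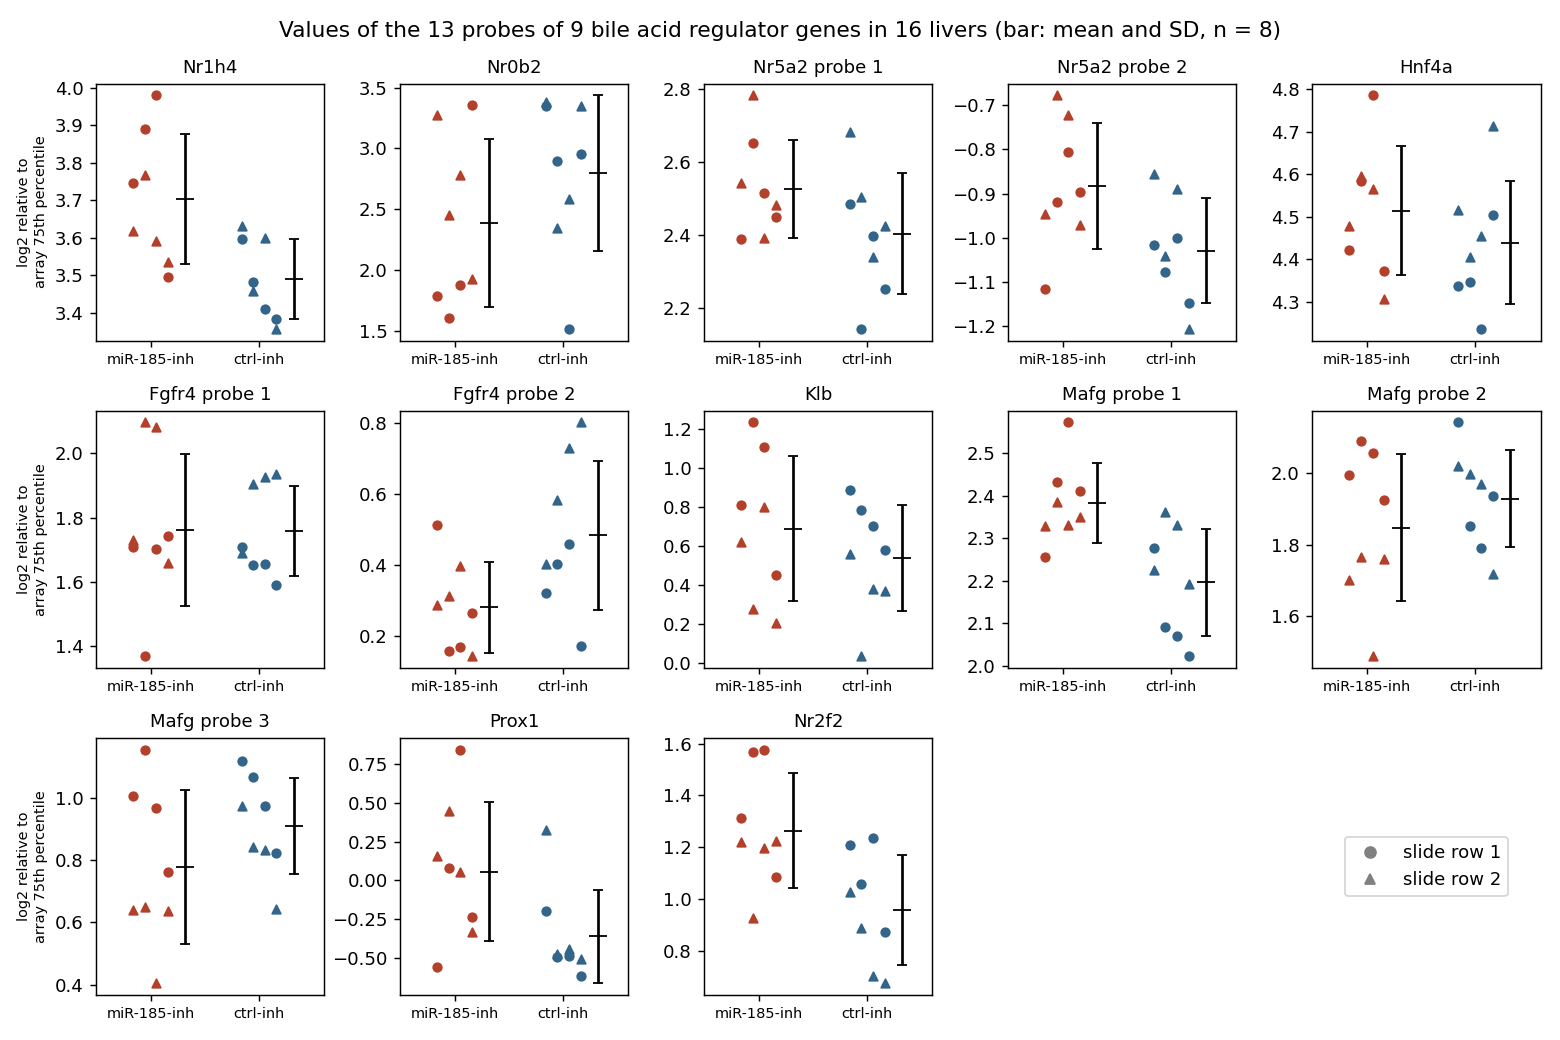
Values of the 13 probes (y axis, log2 relative to the array's 75th percentile, a separate scale per panel) in the 8 miR-185-inh livers (red, left) and the 8 ctrl-inh livers (blue, right). Circles are slide row 1 and triangles slide row 2, and bars give the mean and SD; the 2 groups overlap in every panel, and Nr0b2 spans 1.61 to 3.36 in miR-185-inh mice.

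Nr1h4 was slightly higher in miR-185-inh livers, without passing the adjusted test. The lowest, median and highest miR-185-inh values were 3.49, 3.68 and 3.98, against 3.36, 3.47 and 3.63 in ctrl-inh livers. Each of the 8 miR-185-inh livers exceeded the mean of the ctrl-inh livers, 4 of them also exceeding the highest ctrl-inh mouse, and miR-185-inh mice 6 (3.98) and 3 (3.89) were the highest. The means were 3.70 ± 0.17 and 3.49 ± 0.11 (SD, n = 8 each), a difference of 0.21 (SE 0.077, 95% interval 0.051 to 0.38) or 1.16-fold. Limma's adjusted p was 0.125 and the exact two-sided permutation p was 0.0096. Within slide row 1 the difference was 0.31 and within row 2 it was 0.12. After normexp background correction of the spot medians it was 0.33 (limma adjusted p = 0.0229), which passed; 4.02% of all probes passed with that correction.

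Nr0b2 was lower on average in miR-185-inh livers, without passing the test. The lowest, median and highest values were 1.61, 2.19 and 3.36 in miR-185-inh livers, against 1.52, 2.93 and 3.38 in ctrl-inh livers. The miR-185-inh mice 1, 3, 6 and 12 lay between 1.61 and 1.93 and the other 4 between 2.45 and 3.36, whereas 7 of the 8 ctrl-inh mice lay between 2.35 and 3.38 and ctrl-inh mouse 3 alone was at 1.52. The means were 2.39 ± 0.69 in miR-185-inh mice and 2.80 ± 0.64 in ctrl-inh mice (SD, n = 8 each). The difference of -0.41 (SE 0.30, 95% interval -1.05 to 0.23) was smaller than the spread within either group, with 6 of 8 miR-185-inh mice below the ctrl-inh mean. Limma's adjusted p was 0.490 and the exact permutation p was 0.230. The highest mouse exceeded the lowest 3.36-fold in miR-185-inh livers and 3.63-fold in ctrl-inh livers. The pooled within-group SD of 0.66 was larger than that of 97.4% of all probes, whose median was 0.218. Without miR-185-inh mice 3 and 6 the difference was -0.20, with array weights it was -0.14, and without ctrl-inh mouse 3 it was -0.59.

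Both probes of Nr5a2, the LRH-1 gene, differed little between groups. Probe 1 ranged from 2.39 to 2.78 (median 2.50) in miR-185-inh livers and from 2.14 to 2.68 (median 2.41) in ctrl-inh livers. Its means of 2.53 ± 0.14 and 2.40 ± 0.17 (SD, n = 8 each) gave a difference of 0.12 (95% interval -0.046 to 0.29, limma adjusted p = 0.425). Probe 2 averaged -0.88 ± 0.14 in miR-185-inh mice and -1.03 ± 0.12 in ctrl-inh mice, a difference of 0.15 (limma adjusted p = 0.270, exact permutation p = 0.0427). Across mice the 2 probes had r = 0.46 in the 8 miR-185-inh mice and 0.48 in the 8 ctrl-inh mice.

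Hnf4a, a hepatocyte nuclear receptor that activates many liver genes, ranged from 4.31 to 4.79 (median 4.52) in miR-185-inh livers and from 4.24 to 4.71 (median 4.43) in ctrl-inh livers. Its means of 4.51 ± 0.15 and 4.44 ± 0.14 (SD, n = 8 each) differed by 0.075 (95% interval -0.091 to 0.24, limma adjusted p = 0.645, exact permutation p = 0.327). The difference was 0.19 in slide row 1 and -0.035 in row 2, so its sign was not the same in both rows.

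Fgfr4, the FGF15 receptor, did not pass by either probe. Probe 1 ranged from 1.37 to 2.09 (median 1.72) in miR-185-inh livers and from 1.59 to 1.94 (median 1.70) in ctrl-inh livers. It averaged 1.76 ± 0.23 in miR-185-inh mice and 1.76 ± 0.14 in ctrl-inh mice, a difference of 0.0032 with a 95% interval of -0.20 to 0.21 (limma adjusted p = 0.991). Its sign turned after normexp (-0.069), quantile normalization (-0.023) and scaling to probes detected on every array (-0.022). Probe 2 averaged 0.28 ± 0.13 in miR-185-inh mice and 0.48 ± 0.21 in ctrl-inh mice, a difference of -0.20 (95% interval -0.39 to -0.016, limma adjusted p = 0.212, exact permutation p = 0.0359), with 7 of 8 miR-185-inh mice below the ctrl-inh mean. That difference was -0.34 in slide row 2 and -0.062 in row 1.

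Klb, the FGF15 coreceptor, ranged from 0.21 to 1.23 (median 0.71) in miR-185-inh livers and from 0.038 to 0.89 (median 0.57) in ctrl-inh livers. Its means of 0.69 ± 0.37 and 0.54 ± 0.27 (SD, n = 8 each) differed by 0.15 (95% interval -0.17 to 0.47, limma adjusted p = 0.636). Mice 3 (1.23) and 6 (1.11) were the highest in the miR-185-inh group, and without both the difference was -0.011.

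The 3 probes of Mafg, the small Maf repressor gene, gave differences of unlike sign. Probe 1 ranged from 2.26 to 2.57 (median 2.37) in miR-185-inh livers and from 2.02 to 2.36 (median 2.21) in ctrl-inh livers. Each of the 8 miR-185-inh livers exceeded the mean of the ctrl-inh livers. The means of 2.38 ± 0.094 and 2.20 ± 0.13 (SD, n = 8 each) differed by 0.19 (SE 0.065, 95% interval 0.051 to 0.32), with a limma adjusted p of 0.109 and an exact permutation p of 0.0044. After normexp it was 0.32 (limma adjusted p = 0.0101), which passed. Probes 2 and 3 had negative differences, with means of 1.85 ± 0.20 and 1.93 ± 0.14 for probe 2 in miR-185-inh and ctrl-inh mice (difference -0.080) and 0.78 ± 0.25 and 0.91 ± 0.15 for probe 3 (difference -0.13), at limma adjusted p-values of 0.664 and 0.515. With the 3 probes averaged, the difference was -0.0081. Probe 2 and probe 3 had r = 0.84 over the 16 group-centred values, probe 1 and probe 2 had 0.47, and probe 1 and probe 3 had 0.14.

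Prox1, the corepressor of LRH-1 and HNF4A, had the largest positive difference of the 13 probes. The lowest, median and highest values were -0.56, 0.066 and 0.84 in miR-185-inh livers, against -0.61, -0.48 and 0.33 in ctrl-inh livers. In the ctrl-inh group 7 of 8 mice lay between -0.61 and -0.20 and ctrl-inh mouse 8 was at 0.33, while the 8 miR-185-inh mice spread from -0.56 to 0.84. The means of 0.058 ± 0.45 and -0.36 ± 0.30 (SD, n = 8 each) differed by 0.42 (SE 0.18, 95% interval 0.043 to 0.79) or 1.34-fold, with 7 of 8 miR-185-inh mice above the ctrl-inh mean. Limma's adjusted p was 0.197 and the exact permutation p was 0.0452. The difference was 0.48 in row 1 and 0.36 in row 2.

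Nr2f2, the COUP-TFII gene, ranged from 0.93 to 1.58 (median 1.22) in miR-185-inh livers and from 0.68 to 1.24 (median 0.96) in ctrl-inh livers. Of the miR-185-inh mice 7 of 8 exceeded the ctrl-inh mean and 3 exceeded the highest ctrl-inh mouse. Its means of 1.26 ± 0.22 and 0.96 ± 0.21 (SD, n = 8 each) differed by 0.31 (SE 0.11, 95% interval 0.081 to 0.53), with a limma adjusted p of 0.114 and an exact permutation p of 0.0134. Rows 1 and 2 gave 0.29 and 0.32. Nr2f2 is also expressed in endothelial and stellate cells. Endothelial markers had 0 of 9 genes passing and a median difference of 0.037, with a summed level of 4.62 to 5.26 in miR-185-inh livers and 4.57 to 5.38 in ctrl-inh livers. Stellate cell markers had 0 of 8 passing, 7 above zero and a median of 0.12, with a summed level of 4.72 to 5.48 in miR-185-inh livers and 4.64 to 5.42 in ctrl-inh livers. Bright markers weigh most in such sums, as did Dcn, which differed by 0.011. Differences over the 8 stellate markers ran from -0.041 to 0.27. The part of both cell types in the Nr2f2 value was not tested.

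**Figure D2:**
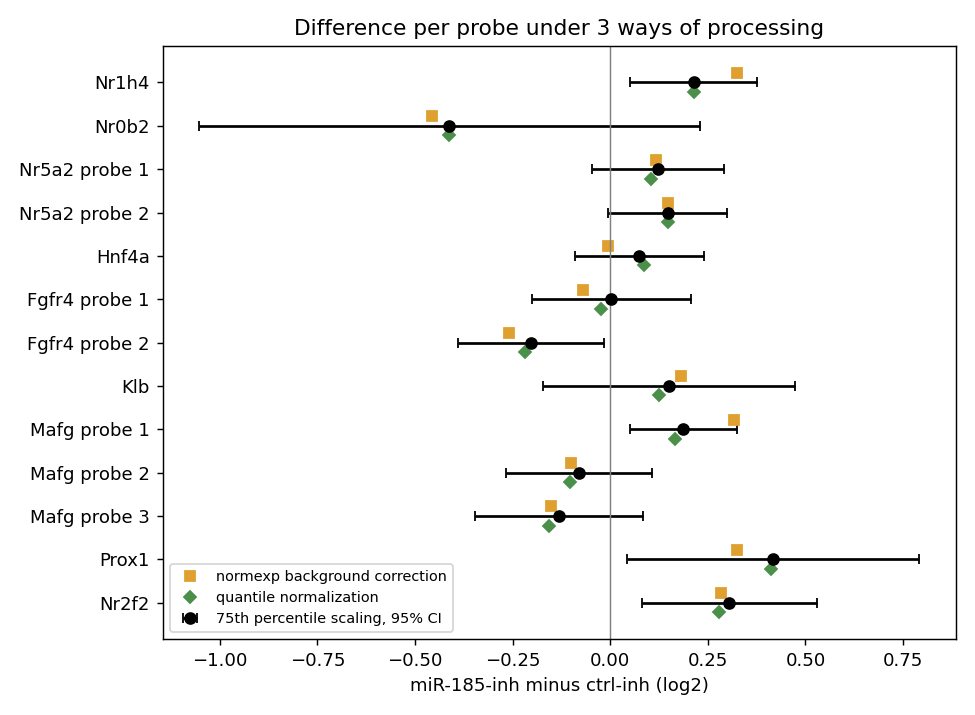
Difference between miR-185-inh and ctrl-inh (x axis, log2) for each of the 13 probes. Black circles with bars are the values after 75th percentile scaling with 95% intervals, squares those after normexp and diamonds those after quantile normalization; only Fgfr4 probe 1 and Hnf4a change sign between them.

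**Figure D3:**
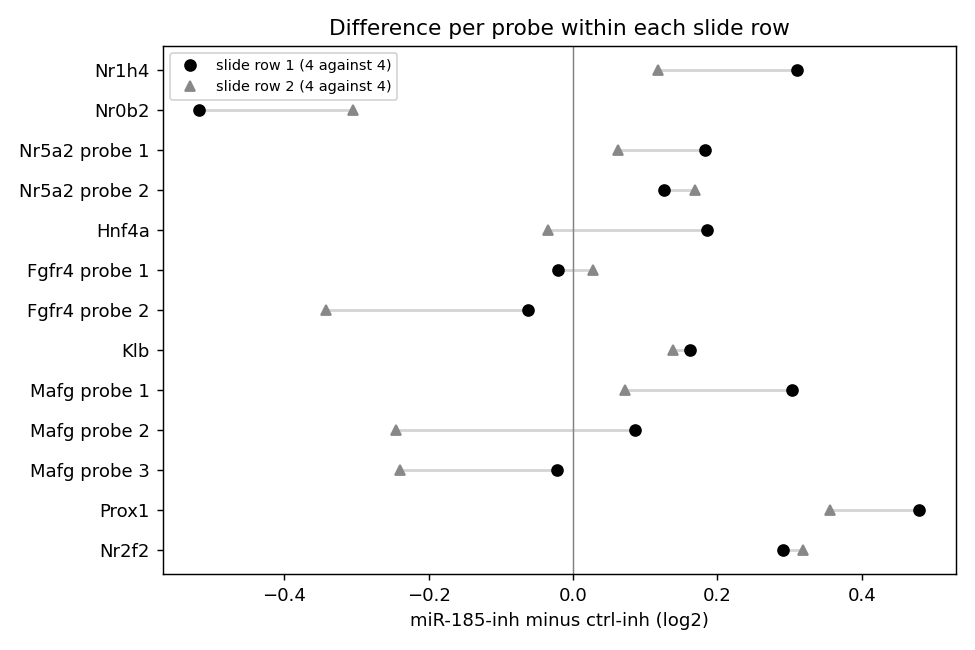
Difference between miR-185-inh and ctrl-inh (x axis, log2) within slide row 1 (black circles) and slide row 2 (grey triangles), 4 mice against 4 in each row. Prox1, Nr2f2 and Nr1h4 are above zero and Nr0b2 below zero in both rows, and Hnf4a, Fgfr4 probe 1 and Mafg probe 2 lie on opposite sides of zero.

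The difference between slide rows was tested as an interaction of row and treatment. None of the 13 probes passed limma's adjusted p, against 0.124% of all probes, and the smallest unadjusted p among them was 0.030 for Mafg probe 2 (limma adjusted p = 0.302). Klb was lower in row 2 than in row 1 of both slides, with a contrast of -0.43 in miR-185-inh mice and -0.40 in ctrl-inh mice (limma adjusted p = 0.458 and 0.0986).

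Cyp7a1, the output on which FXR, SHP, LRH-1 and FGF15 converge, averaged 2.15 ± 0.62 in miR-185-inh livers and 1.44 ± 0.54 in ctrl-inh livers (SD, n = 8 each). The difference of 0.71 (SE 0.27) had a limma adjusted p of 0.141 and an exact permutation p of 0.0247. Its lowest, median and highest values were 1.27, 2.06 and 3.41 in miR-185-inh livers, against 0.66, 1.51 and 2.17 in ctrl-inh livers. Cyp8b1, Cyp7b1 and Cyp27a1 differed by 0.052, 0.075 and 0.041, and the bile salt export pump Abcb11 by -0.052. The uptake transporter Slc10a1 differed by -0.28 (limma adjusted p = 0.160) by its brightest probe, which was measured in 6 of 8 ctrl-inh mice, and by -0.049 by its other probe. Slc51b, a basolateral bile acid exporter subunit and FXR target, averaged -0.63 ± 0.96 in miR-185-inh livers and -0.22 ± 0.61 in ctrl-inh livers, a difference of -0.41 (limma adjusted p = 0.576). None of these 7 output genes passed.

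Covariation between the brightest probes was computed within each group of 8 mice, since a pooled r would mix it with the group difference. Other probes of Nr5a2, Fgfr4, Mafg and Slc10a1 were not used. The 2 Nr5a2 probes had r = 0.46 in miR-185-inh mice and 0.48 in ctrl-inh mice. Mafg probe 1 had r = 0.47 with probe 2 and 0.14 with probe 3 over group-centred values. The family held 36 pairs of the 9 genes and 63 pairs of a regulator with an output gene in both groups, 198 tests. None reached an adjusted exact permutation p under 0.05, the lowest being 0.250, and 27 had an unadjusted p under 0.05. The tests share genes and mice, and the share among other gene pairs was not computed, so 27 cannot be read as an excess. Among the 36 pairs of regulators, 5 had an unadjusted p under 0.05 in miR-185-inh mice and 5 in ctrl-inh mice. The sign of r was the same in both groups for 21 of the 36.

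**Figure D4:**
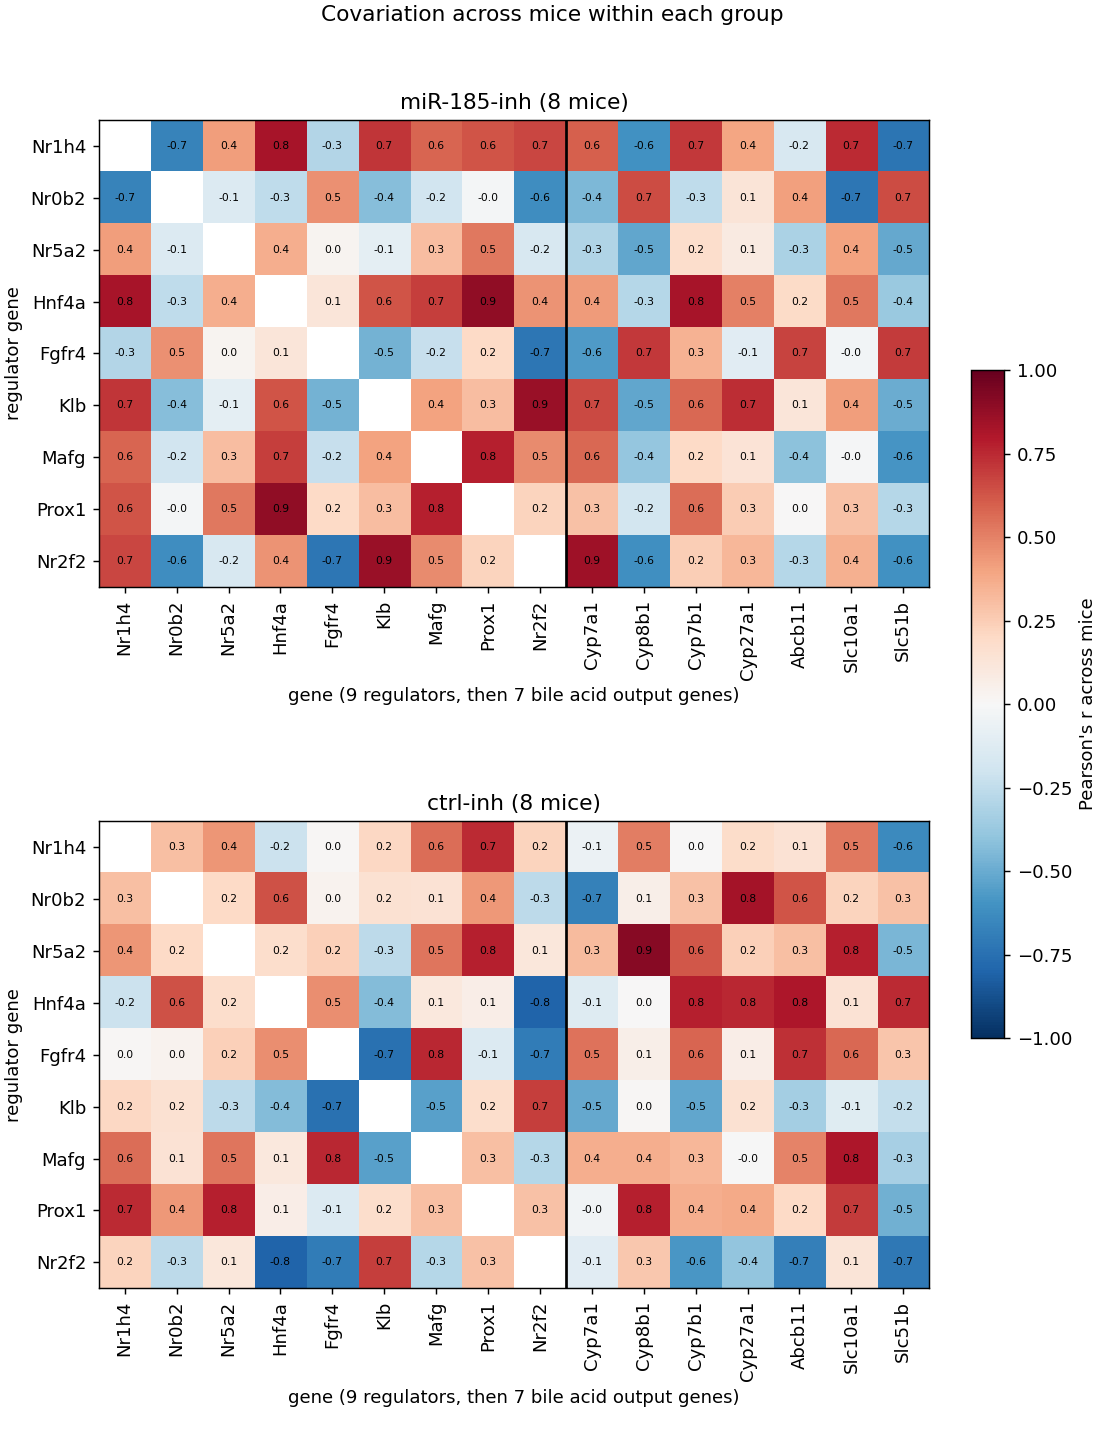
Pearson's r across the 8 miR-185-inh mice (top) and the 8 ctrl-inh mice (bottom) for each regulator (rows) with the 9 regulators and 7 output genes (columns), colour from -1 to 1. Hnf4a with Prox1 is 0.89 in miR-185-inh mice and 0.067 in ctrl-inh mice, and Klb with Nr2f2 is 0.86 and 0.69; Slc10a1 has 6 mice in ctrl-inh.

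The smallest p belonged to Nr1h4 with Prox1 in ctrl-inh mice, with r = 0.74 (exact permutation p = 0.00146, adjusted 0.250) and rho = 0.88 (exact permutation p = 0.0072, adjusted 0.338). Without the 2 mice farthest from the Nr1h4 median, r was 0.88. In miR-185-inh mice r was 0.63, and 0.27 without the 2 farthest mice, and over all 16 group-centred values it was 0.66. Hnf4a with Prox1 had r = 0.89 in miR-185-inh mice (exact permutation p = 0.0042, adjusted 0.250) and rho = 0.86 (exact permutation p = 0.0107, adjusted 0.338), and 0.76 without the 2 farthest mice, against r = 0.067 in ctrl-inh mice. Klb with Nr2f2 had r = 0.86 in miR-185-inh mice (exact permutation p = 0.0075, adjusted 0.250), rho = 0.71 (exact permutation p = 0.0576, adjusted 0.366), and 0.69 in ctrl-inh mice. Without the 2 farthest mice, r was 0.96 in miR-185-inh mice and 0.88 in ctrl-inh mice, and with group and slide row both centred it was 0.63. Mafg with Prox1 had r = 0.78 in miR-185-inh mice (exact permutation p = 0.0242, adjusted 0.289) and rho = 0.55 (exact permutation p = 0.171, adjusted 0.491), and rested on the 2 farthest mice, without which r was -0.011.

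Nr1h4 with Nr0b2 had r = -0.66 in miR-185-inh mice (exact permutation p = 0.0776, adjusted 0.367) and rho = -0.69 (exact permutation p = 0.0694, adjusted 0.366), whereas r was 0.30 in ctrl-inh mice (exact permutation p = 0.492, adjusted 0.762). The difference between these 2 values was not tested. The 3 highest Nr1h4 values among miR-185-inh mice, in mice 6, 3 and 9, went with Nr0b2 at 1.88, 1.61 and 2.45. In the others, mice 1, 8, 10, 12 and 7 by falling Nr1h4, Nr0b2 was 1.79, 3.28, 2.78, 1.93 and 3.36. Nr1h4 with the FXR target Slc51b had r = -0.73 in miR-185-inh mice (exact permutation p = 0.0349, adjusted 0.313). In ctrl-inh mice it was -0.64 (exact permutation p = 0.0838, adjusted 0.386). Without the 2 farthest mice these were -0.31 and -0.72. Nr1h4 with Abcb11 had r = -0.16 in miR-185-inh mice and 0.15 in ctrl-inh mice.

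Nr0b2 with Cyp7a1, a gene that SHP represses, was below zero in both groups. It had r = -0.45 in miR-185-inh mice (exact permutation p = 0.280, adjusted 0.605) and -0.67 in ctrl-inh mice (exact permutation p = 0.0614, adjusted 0.337), with rho = -0.62 in each (exact permutation p = 0.115, adjusted 0.407). Without the 2 mice farthest from the Nr0b2 median, r was -0.64 in miR-185-inh mice and -0.17 in ctrl-inh mice, so the ctrl-inh value rested on those mice. Over the 16 group-centred values r was -0.55, and -0.60 with the slide row centred as well. For Cyp8b1 and Cyp27a1 the sign was above zero in both groups. Nr0b2 with Cyp8b1 had r = 0.65 in miR-185-inh mice (exact permutation p = 0.0443, adjusted 0.325) and 0.062 in ctrl-inh mice. Nr0b2 with Cyp27a1 had r = 0.13 in miR-185-inh mice and 0.83 in ctrl-inh mice (exact permutation p = 0.0076, adjusted 0.250). With Cyp7b1 it was -0.26 in miR-185-inh mice and 0.29 in ctrl-inh mice. Ctrl-inh mouse 3 had the lowest Nr0b2 (1.52) and the highest Cyp7a1 (2.17) of its group. The highest Cyp7a1 of the miR-185-inh group, 3.41 in mouse 6, went with an Nr0b2 of 1.88. The 4 miR-185-inh mice under 2 in Nr0b2 had Cyp7a1 values from 2.04 to 3.41, and the other 4 from 1.27 to 2.08. That cut was chosen after these Nr0b2 values had been seen, and the split was not tested.

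**Figure D5:**
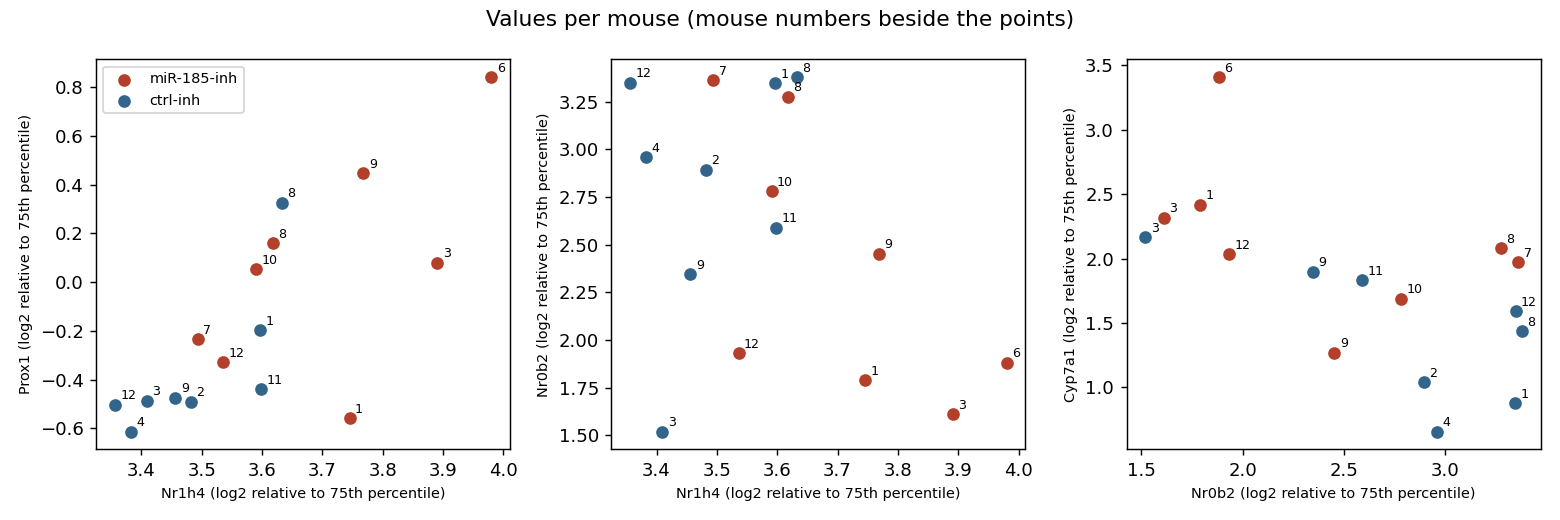
Values per mouse, log2 relative to the array's 75th percentile on every axis, with mouse numbers: Prox1 against Nr1h4 (left), Nr0b2 against Nr1h4 (middle) and Cyp7a1 against Nr0b2 (right), red for miR-185-inh and blue for ctrl-inh. Ctrl-inh mouse 3 has the lowest Nr0b2 (1.52) with a Cyp7a1 of 2.17, the highest of its group.

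Nr2f2 with Cyp7a1 had r = 0.85 in miR-185-inh mice (exact permutation p = 0.0063, adjusted 0.250), rho = 0.93 (exact permutation p = 0.0022, adjusted 0.338) and 0.88 without the 2 farthest mice, against -0.11 in ctrl-inh mice. Nr5a2 with Cyp8b1 had r = 0.91 in ctrl-inh mice (exact permutation p = 0.0036, adjusted 0.250) with rho = 0.69 (exact permutation p = 0.0694, adjusted 0.366), 0.62 without the 2 farthest mice, and -0.52 in miR-185-inh mice. Hnf4a with Cyp7b1, the oxysterol 7-alpha-hydroxylase, was above zero in both groups, with r = 0.82 in miR-185-inh mice (exact permutation p = 0.0094, adjusted 0.264) and 0.78 in ctrl-inh mice (exact permutation p = 0.0229, adjusted 0.289), rho being 0.83 (exact permutation p = 0.0154, adjusted 0.338) and 0.71 (exact permutation p = 0.0576, adjusted 0.366). Without the 2 farthest mice r was 0.68 and 0.75. Differences in r between groups were not tested.

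For each regulator the 3 named genes with the highest r to its brightest probe over the 16 group-centred arrays were taken from 17812 probes well above background everywhere. All values are correlations over the same 16 arrays, chosen as the highest of many, and are given as a description. Nr1h4 was nearest to Dhdh (0.91), Mia3 (0.91) and Trib1 (0.90). Nr0b2 was nearest to Depp1 (0.83), Brdt (0.82) and Arl4a (0.80), all 3 with negative differences, from -0.46 to -0.38, like Nr0b2 itself. Klb was nearest to Sult1c2 (0.97), the glucose transporter Slc2a2 (0.95) and the uridine phosphorylase Upp2 (0.90). Nr2f2 was nearest to Tnfrsf19 (0.92), Fam13a (0.91) and the endoplasmic reticulum chaperone Dnajb11 (0.90). Hnf4a was nearest to the Nanog probe (0.93), Chchd10 (0.92) and the chaperone Hspa8 (0.92). Nr5a2 was nearest to Atp6v0a2 (0.83), Ebna1bp2 (0.82) and Ddx52 (0.80), and Prox1 to Zfp395 (0.86), Rhot1 (0.82) and Brap (0.81). Fgfr4 was nearest to Cmtm7 (0.93), Ggt6 (0.91) and Oaz2 (0.91), and Mafg to Ifnar1 (0.92), Rsl1d1 (0.90) and Srsf5 (0.86). Of these 27 genes, Oaz2 (0.26, limma adjusted p = 0.0246) and Rsl1d1 (0.24, limma adjusted p = 0.0437) passed between miR-185-inh and ctrl-inh, both higher in miR-185-inh livers, beside 4.3% of all probes that passed.

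Lists of the genes around the 9 regulators were read by their brightest probes, of which 4.74% passed over the whole array. Of 15 FXR-induced genes, 14 had a named probe on the array, all but Apoc2. Of these, 12 passed the filter on dim probes and none passed limma's test. There were 2 above zero and 10 below, with a median of -0.055 beside -0.033 over all brightest probes. Sdc1, the syndecan-1 gene, averaged 2.29 ± 0.13 in miR-185-inh livers and 2.50 ± 0.16 in ctrl-inh livers (limma adjusted p = 0.151), with all 8 miR-185-inh mice below the ctrl-inh mean. Osgin1 differed by -0.16 and Fetub by 0.087. Fgf15 itself was well above background on 0 of 16 arrays and the exporter subunit Slc51a on 5. Of 10 synthesis and uptake genes repressed through SHP, FGF15 or MafG none passed, with 4 above zero, 6 below and a median of -0.021. Besides Cyp7a1 and Slc10a1, the smallest p in that list was that of Slc27a5, the bile acid CoA ligase, with a difference of -0.17 (limma adjusted p = 0.289).

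Of 23 cofactors of FXR and SHP, 1 passed by its brightest probe, beside 4.74% of all brightest probes. That was Hdac3, a histone deacetylase in nuclear receptor corepressor complexes, which averaged 0.61 ± 0.12 in miR-185-inh livers and 0.31 ± 0.17 in ctrl-inh livers (SD, n = 8 each), a difference of 0.30 (SE 0.078, limma adjusted p = 0.0395), with all 8 miR-185-inh mice above the ctrl-inh mean. The call was lost in 20 of 31 alternative settings, among them quantile normalization (limma adjusted p = 0.0562), and the difference stayed between 0.21 and 0.46. A dimmer probe of the coactivator Ncoa1 also passed (0.24, limma adjusted p = 0.0362), a call lost in 19 of 30 alternative settings, while its other 2 probes differed by 0.019 and -0.052. Over all 38 cofactor probes 2 passed, beside 4.3% of all probes. Of the 23, 14 were above zero and 9 below, with a median of 0.019, and the corepressor subunit Hdac1 differed by 0.12 and the chromatin remodeller Smarca2 by 0.17, neither passing. All 18 FGF receptor and MAP kinase signalling genes were measured and none passed, with 10 above zero, 8 below and a median of 0.022; the smallest p-values were those of the adaptor Shc1 (0.13), the kinase Map2k4 (0.10) and the feedback inhibitor Spry4 (0.36). Of 22 hepatocyte transcription factors 21 passed the filter and none the test, with 13 above zero, 8 below and a median of 0.047; Nr2f1, the paralogue of Nr2f2, differed by 0.21 (limma adjusted p = 0.127) and Cebpa by 0.24.

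Markers of other cells were given the same reading. None of 8 hepatocyte (median -0.075), 5 cholangiocyte (-0.087), 6 Kupffer cell (-0.14) or 4 intestinal markers (0.0080) passed limma's test. All 6 Kupffer cell markers had negative differences, from -0.25 to -0.0046, with a summed level of 5.33 to 5.98 in miR-185-inh livers and 5.61 to 6.06 in ctrl-inh livers. Of the 8 hepatocyte markers 7 were also below zero, and over all probes 41.1% of differences were above zero. The intestinal factor Cdx2 was well above background on no array. Fabp2, Vil1 and Slc10a2 were well above background on all 8 miR-185-inh and all 8 ctrl-inh arrays. Lct was so on 8 miR-185-inh and 7 ctrl-inh arrays. Fabp2 averaged 4.18 in miR-185-inh livers and 4.20 in ctrl-inh livers. The part of all these cell types in the values of the 9 regulators was not tested.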

How the data were processed

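Liver RNA of 16 mice was measured on 1-colour Agilent arrays. The deposited scanner files hold, per the file headers, a background-corrected intensity per spot from Feature Extraction 11.5.1.1 (grid on mm9); the submitters' processing notes name version 9.1. The authors' deposited value table holds log2 values that equal log2 of the processed intensity minus a constant per array, the basis of which the sources used here do not give; column medians ran from -1.30 to -1.22. Direction needs no setting on 1-colour arrays and genes were not centred.

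Values were log2 processed intensity minus the 75th percentile of all non-control spots of that array. Outlier spots were left out and a probe needed to be well above background on 8 or more of the 16 arrays. Accessions were named through the RefSeq table of GRCm38.p6, for names only, which gave 26762 of 55681 probes a symbol. Groups came from the labels. Tests were limma 3.58.1 in R 4.3.3 (lmFit, eBayes, two-sided, Benjamini-Hochberg, threshold 0.05), tested on simulated data, and exact two-sided permutation over 12870 splits (smallest p 0.000155); covariation used all 40320 pairings of 8 mice, and 720 in the 9 tests with 6 mice (Slc10a1, ctrl-inh). The labels name separate mice, and the p-values measure the spread between them. Named genes were every member and output gene, each list gene that passed or else up to 3 with the smallest p, and the 3 nearest genes per member. Among the cofactors, Hdac1 and Smarca2, next after Hdac3 in limma's p by brightest probe, were named outside this rule. A result that this rule would name among the transcription factors is not reported here. Members and lists were chosen with earlier results of these data known. Normexp used spot medians with an offset of 50. Summed marker levels are log2 of summed linear values, in which the brightest markers weigh most. Alternatives covered background, scaling, filters, probe choice, model, slide row and column, shared mouse numbers and each mouse left out. Differences of 2 cofactor probes under these settings were followed after seeing the data.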

Additional observations from a re-analysis of the deposited data

Results flagged for a closer look

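Prox1 in ctrl-inh mouse 8 stood apart from its group: at 0.33 it was the highest of the 8 ctrl-inh values, with the next at -0.20 and the lowest at -0.61, a gap of 0.557 of the range against a critical value of 0.526. Without that mouse the Prox1 difference was 0.52 (limma adjusted p = 0.0976), against 0.42 with it. It was the 1 such value among 26 groups of values examined, and chance marks about 1 in 20 groups.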

How the results depend on the processing

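The count of probes of the 9 genes that passed was 0 under 31 of 32 alternative settings and 2 with normexp (Nr1h4 0.33 and Mafg probe 1 0.32). With the brightest probe per gene or the mean of a gene's probes, 9 values were tested in place of 13. Over all probes, 384 of the 1527 calls were higher in miR-185-inh livers; the split was 687 of 1428 with normexp and 437 of 899 with quantile normalization. Calls numbered 0 in slide row 1 alone (6058 at an unadjusted limma p under 0.05), 355 in slide row 2 alone, and 897 to 2029 with 1 mouse left out, the lowest without ctrl-inh mouse 12 or miR-185-inh mouse 7, then 916 without ctrl-inh mouse 11 and 964 without miR-185-inh mouse 6. Mouse numbers 1, 3, 8, 9 and 12 occur in both groups. Same-numbered mice had correlations of their deviations from -0.12 to 0.11, and none matched its own number best. Same-numbered mice lay on different slides, so these values cannot decide whether a shared number marks a pairing. The replicate block over these 5 numbers gave 0 calls (3545 unadjusted), and the same mice without the block 0 (3866 unadjusted); both use fewer mice. The direction of Fgfr4 probe 1 turned with normexp (-0.069), quantile normalization (-0.023), scaling to detected probes (-0.022) and in row 1 alone (-0.021). It also turned with the replicate block (-0.066) and the same mice without it (-0.066). With 1 mouse left out it ran from -0.044 to 0.059. Hnf4a turned with normexp (-0.0056) and in row 2 (-0.035). Mafg probe 2 turned in row 1 (0.085), and Klb without miR-185-inh mice 3 and 6 (-0.011). With the probes of a gene averaged, the difference was -0.0996 for Fgfr4 and -0.0081 for Mafg, whose probe 1 differences were above zero. The cause was not tested. The other differences of the 13 probes kept their direction. The Hdac3 call held in 11 of 31 settings and the Ncoa1 call in 11 of 30. Over the pairs of regulators and of a regulator with an output gene, 0 of 198 exact permutation tests passed with normexp, quantile normalization, scaling to detected probes, the authors' deposited values or Spearman's rho (21 to 29 unadjusted), and 0 of 189 without the 2 farthest mice (12 unadjusted).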
